A study of Mus musculus with 16 samples.

Results

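The genes described here encode the initiation and elongation factors of cytosolic protein synthesis and the enzymes that act directly on them. They are the protein-coding genes whose symbols start with Eif1 to Eif6 or with Eef1 or Eef2, leaving out 4 symbols (Eif1ax, Eif2s3x, Eif2s3y and Eif2ak3). This gave 60 of the 22880 genes in the deposited tables. The rule itself uses no measured value, but the set was proposed with earlier results of these data known. Total RNA of the mouse brain cortex was sequenced from 16 individual animals of the F1 C57Bl6/J x Sv129 background. All were taken at zeitgeber time 4, that is 4 h after light onset, and were housed in groups of 2. The 4 groups of 4 mice were wild type littermates that were sleep deprived by gentle handling over the first 4 h of light (WT_SD), wild type littermates left undisturbed (WT_BL), BK deficient mice sleep deprived in the same way (KO_SD) and BK deficient mice left undisturbed (KO_BL). A single library is written with its replicate number, such as KO_SD 4. BK is a potassium channel opened by voltage and calcium, with Kcnma1 as the gene of its pore subunit, and the comparisons ask what sleep deprivation does to the cortex and whether that depends on the channel.

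In translation initiation, the factor eIF2 brings the initiator tRNA to the small ribosomal subunit, eIF3 forms a scaffold there, and the cap-binding complex eIF4F, made of eIF4E, eIF4G and the RNA helicase eIF4A, recruits the mRNA. Once eIF1 and eIF5 have helped to select the start codon, eEF1 delivers aminoacyl-tRNAs and eEF2 moves the ribosome along the message. Phosphorylation of eIF2 and of eEF2 by dedicated kinases and the binding of eIF4E by its repressor proteins slow the process, and in neurons these steps are known as control points for activity-dependent protein synthesis and memory.

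The libraries held between 8.76 M (KO_BL 1) and 30.5 M recovered reads (KO_SD 2), and the labels give no batch of extraction or sequencing. Kcnma1 had between 432 and 2004 normalized counts in KO_SD, between 823 and 1583 in WT_SD, between 1425 and 2156 in KO_BL and between 1151 and 1889 in WT_BL. The sources used here do not give the deleted part of the gene, so counts over the whole gene do not check the genotype labels. Each library came from 1 animal, so p-values measure the spread between animals. In bulk cortex, fewer cells of a type and less RNA per cell cannot be told apart. Marker genes of neighbouring tissue moved with sleep deprivation. The summed normalized counts of 11 striatal markers ran from 4833 to 7342 in WT_SD against 6171 to 25572 in WT_BL, and from 5444 to 12632 in KO_SD against 6624 to 19935 in KO_BL, and no marker was at 0 in every library.

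Library KO_SD 4 stood apart, for these genes and over all genes. Over the 58 factor genes that passed the filter on low values, its mean log2 deviation from the gene average was 0.24, while the other 15 libraries lay between -0.08 and 0.04. It held the highest value of all 16 libraries for 33 of the 58 genes and the lowest for 8. KO_SD 1 held the highest value for 13 and the lowest for 14. The shares of all genes with their highest or lowest value in these libraries were not taken. Over all genes, the median Spearman correlation with the other libraries was 0.973 for KO_SD 4, 0.978 for KO_SD 1 and at least 0.984 for each of the other 14. KO_SD 4 and KO_SD 1 were also compared with the mean of KO_SD 2 and KO_SD 3. The log2 difference of KO_SD 4 ran with deposited width (gene length in bases) at a Spearman rho of -0.38 over 14604 genes. That of KO_SD 1 ran the other way, at 0.39. Over the factor genes the values were -0.45 and 0.49. The median SD of the factor genes between animals was 0.28 log2 units in KO_SD (0.18 without KO_SD 4), against 0.12 in WT_SD, 0.09 in WT_BL and 0.10 in KO_BL. Many results that rest on these libraries are therefore also given without them.

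**Figure D1:**
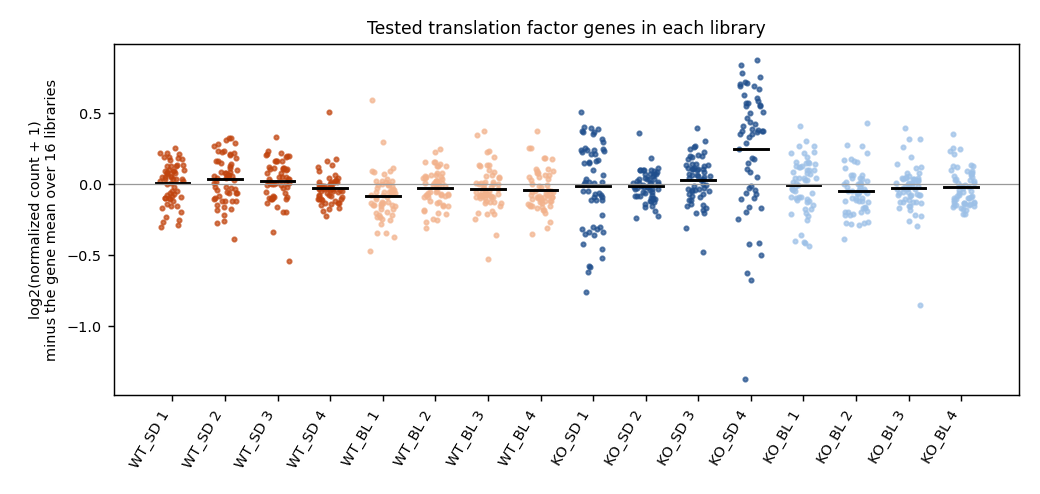
Deviation of each of the 58 tested factor genes (points) from its own mean over 16 libraries, on the log2(normalized count + 1) scale, by library, with the mean over genes as a black line. The points of KO_SD 4 spread most widely and their mean is 0.24, against means between -0.08 and 0.04 in the other 15 libraries.

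Levels per length spanned several orders. Eef1a1, which encodes the elongation factor that carries aminoacyl-tRNA to the ribosome, was the highest of the 60 genes, at 1608 ± 216 FPKM (fragments scaled to transcript length and library size, SD over 16 libraries). Eif4g2, which encodes an eIF4G-like protein that does not bind eIF4E, followed with 601 ± 62.1 FPKM, the helicase gene Eif4a2 with 524 ± 56.8 FPKM and the neuron and muscle isoform Eef1a2 with 445 ± 52.5 FPKM. The translocase gene Eef2, Eif1, the second helicase gene Eif4a1 and Eif5a had 310 ± 44.1, 297 ± 63.3, 251 ± 44.0 and 243 ± 38.2 FPKM, and neighbours among these 4 did not differ beyond their spread. Eif1b, a close relative of Eif1, was at 92.0 ± 20.7 FPKM. Ranks between genes depend on the length used. Deposited widths were 1120 bases for Eif4g2, 1110 for Eif4a2 and 2080 for Eef1a2, against 10166, 5338 and 2084 annotated exonic bases.

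The genes of the control steps were lower. The cap-binding protein gene Eif4e was at 73.6 ± 7.73 FPKM, and its relative Eif4e2 at 30.2 ± 2.02 FPKM. The eEF2 kinase gene Eef2k was at 20.8 ± 2.84 FPKM and Eif2s1, which encodes the eIF2 subunit that is phosphorylated under stress, at 12.6 ± 2.05 FPKM. The genes of the eIF4E-binding repressors, Eif4ebp3, Eif4ebp2 and Eif4ebp1, had 9.94 ± 2.29, 9.51 ± 2.47 and 3.49 ± 0.543 FPKM. Eif2ak2, which encodes the double-stranded RNA-activated eIF2 kinase PKR, was at 3.65 ± 0.876 FPKM, against 39.9 ± 2.51 FPKM for the heme-regulated kinase gene Eif2ak1 and 7.48 ± 1.03 FPKM for the amino acid sensing kinase gene Eif2ak4. Eif3j2 and the oocyte form Eif4e1b did not pass the filter, with at most 0.144 FPKM in any library, and Eif4e1b was listed at 0 in 14 of the 16 libraries.

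**Figure D2:**
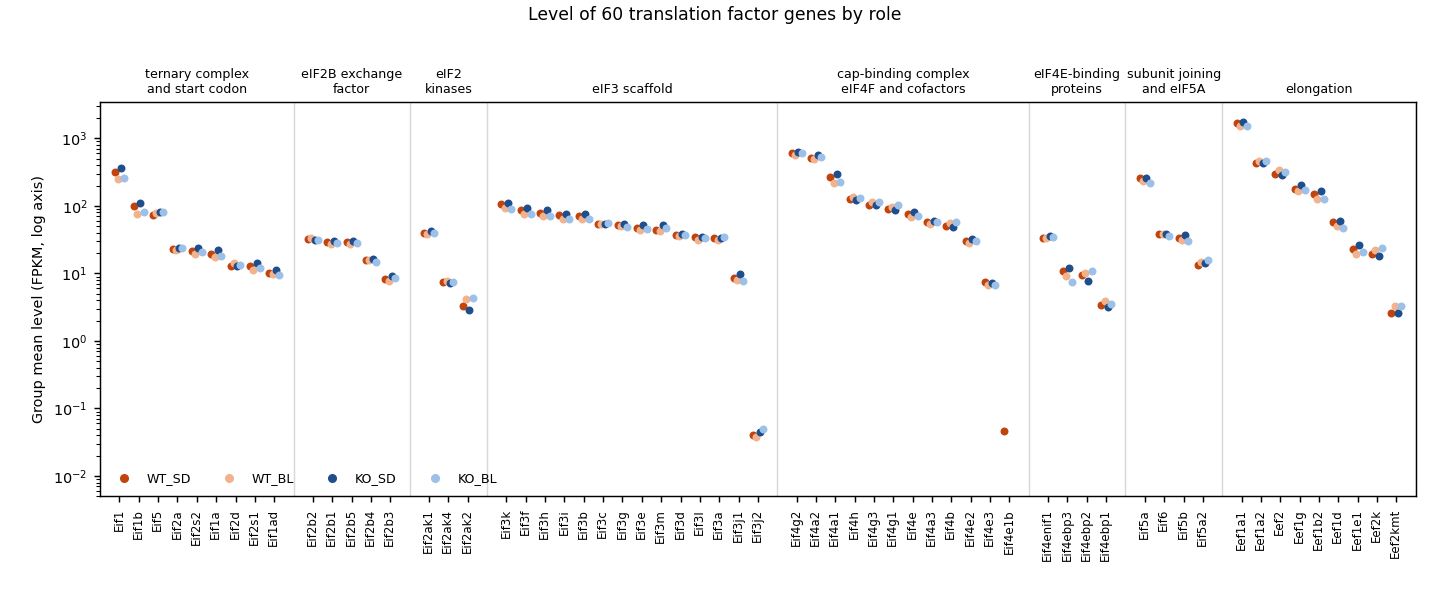
Mean level of each of the 60 factor genes in WT_SD, WT_BL, KO_SD and KO_BL (points, FPKM on a log axis), in blocks by role and in falling order within a block. Means of 0 (Eif4e1b in WT_BL, KO_SD and KO_BL) are not drawn. Eef1a1 is highest at 1608 FPKM over all libraries, and Eef2kmt, Eif4ebp1 and Eif2ak2 are the lowest of the tested genes, at 2.94, 3.49 and 3.65 FPKM.

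Taken over both genotypes, sleep deprivation raised 4 of the 58 tested factor genes and lowered 3. Eif1, Eif1b, Eif4a1 and Eif4ebp3 rose by between 0.36 and 0.51 log2 units, and Eef2k, Eif4b and Eif2ak2 fell by between 0.18 and 0.45. The effect is the mean of the WT_SD minus WT_BL and KO_SD minus KO_BL differences in 1 fit of all 16 libraries, tested with limma and called at a Benjamini-Hochberg adjusted p below 0.05 over 14604 genes. Of all tested genes, 10% were called (5.12% higher and 4.88% lower), and the 12.1% of factor genes called is near that background. At an unadjusted p below 0.05, 20 factor genes passed (16 higher and 4 lower), which is 34.5% of them against 27.3% of all genes. The median log2 effect was 0.09 over the factor genes, with 42 above 0 (72.4%) and 16 below, and -0.003 over all genes, of which 49.3% were above 0.

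**Figure D3:**
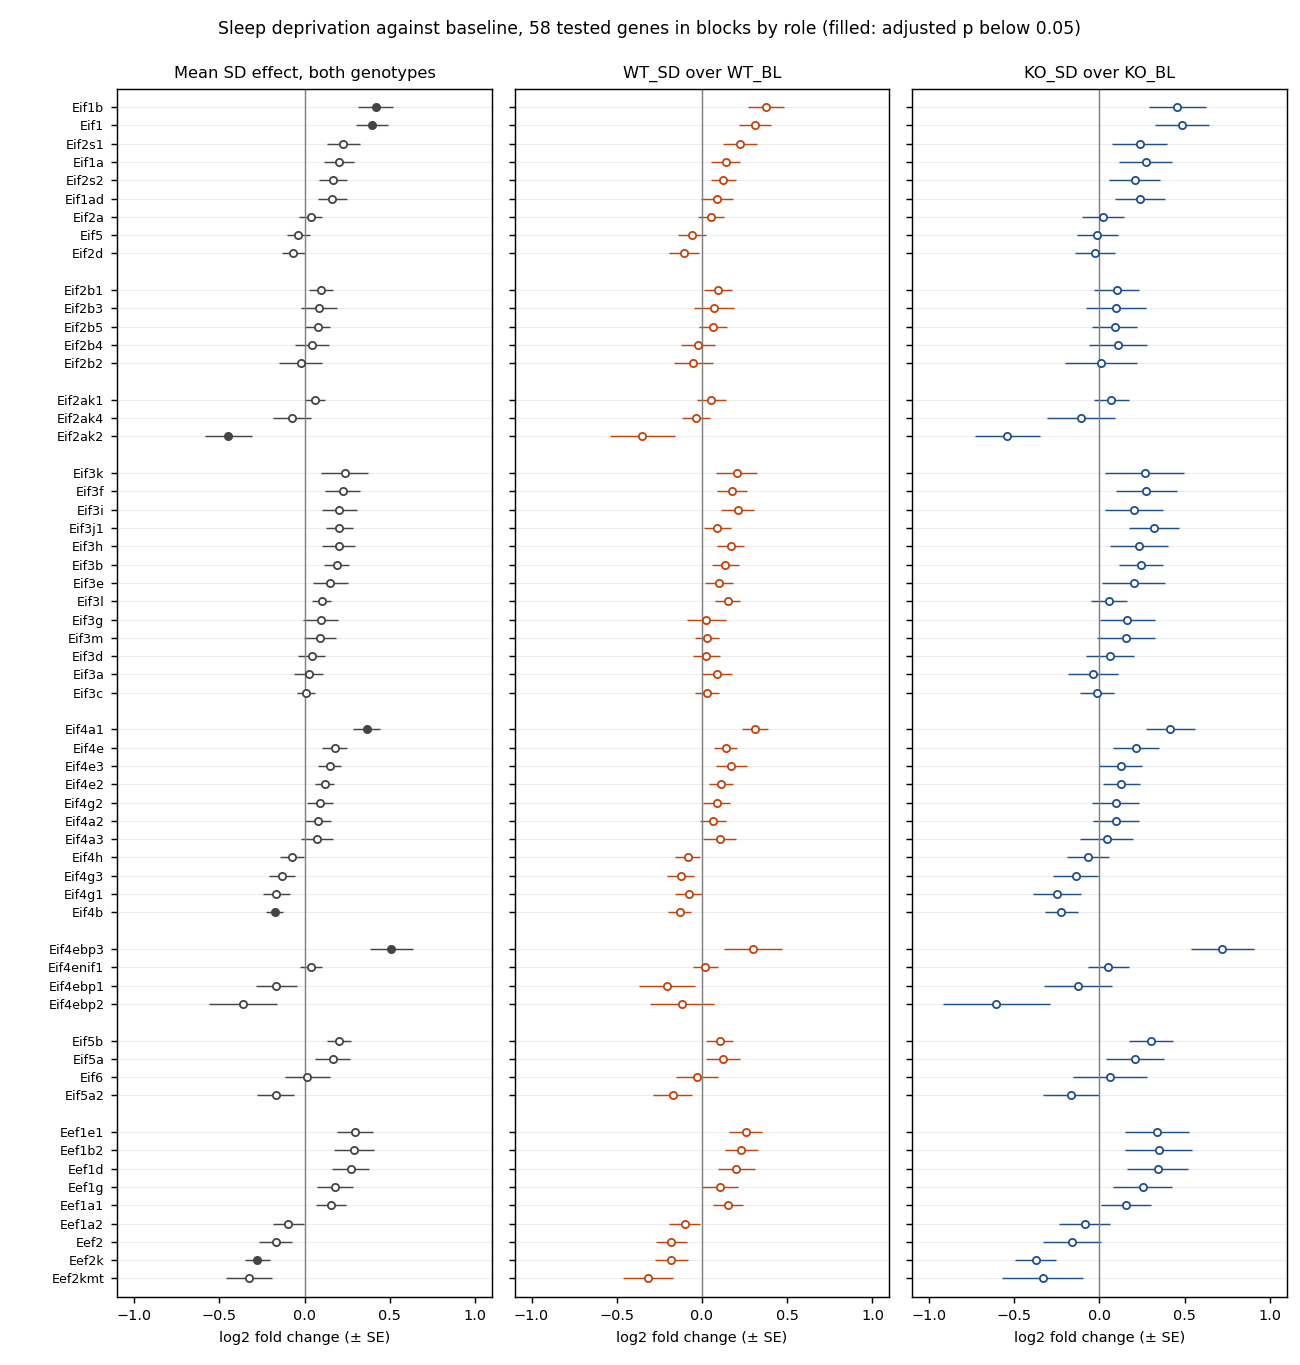
Log2 fold change (± SE) of the 58 tested factor genes, in blocks by role, for the mean sleep deprivation effect over both genotypes, for WT_SD over WT_BL and for KO_SD over KO_BL. Filled points have an adjusted p below 0.05, and there are 7 in the first panel and none in the other 2.

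Among the genes of start codon selection, Eif1 and Eif1b both rose. Eif1 (ENSMUSG00000035530, chromosome 11, 100319885 to 100322096, plus strand, GRCm38) encodes the factor that keeps the scanning ribosome from stopping at poor start codons. It had 4213, 4770, 4710 and 3764 normalized counts in WT_SD 1 to 4, against 3199, 3642, 3425 and 3791 in WT_BL 1 to 4. In KO_SD 1 to 4 it had 4090, 4256, 5321 and 6655 normalized counts, against 3811, 3489, 3302 and 3660 in KO_BL 1 to 4. All 4 KO_SD libraries lay above all KO_BL libraries, whereas WT_SD 4 fell below WT_BL 4. The mean effect was 0.40 ± 0.09 (log2, SE, limma adjusted p = 0.0145), and 0.33 without KO_SD 4 (adjusted p = 0.0117).

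Eif1b (chromosome 9, 120492232 to 120495330, plus strand) had 1751, 1846, 1858 and 1575 normalized counts in WT_SD, against 1158, 1594, 1251 and 1442 in WT_BL. In KO_SD it had 1618, 1714, 1921 and 2756 normalized counts, against 1579, 1329, 1376 and 1430 in KO_BL. The knockout groups did not overlap, and in wild type WT_SD 4 lay just below WT_BL 2. Its mean effect came to 0.42 ± 0.10 (log2, SE, limma adjusted p = 0.0174), and 0.33 without KO_SD 4 (adjusted p = 0.0118). An antisense gene, D830035M03Rik, shares 143 exonic bases with Eif1b, and since the sources used here do not give the strandedness of the libraries, reads from both cannot be told apart there.

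Eif4a1 (ENSMUSG00000059796, chromosome 11, 69666936 to 69672423, minus strand), one of the 2 cytosolic eIF4A helicase genes, separated the groups in both genotypes. It had 5346, 4916, 5381 and 4586 normalized counts in WT_SD, against 4079, 4059, 4221 and 3898 in WT_BL. In KO_SD it had 5511, 4939, 5122 and 7127 normalized counts, against 4842, 3582, 4225 and 4277 in KO_BL. Every sleep-deprived library was above every baseline library of its genotype. The mean effect was 0.36 ± 0.08 (log2, SE, limma adjusted p = 0.0113), and 0.31 without KO_SD 4 (adjusted p = 0.00878). Eif4a1 hosts 2 small RNA genes of 143 and 144 exonic bases on its own strand, whose reads would be counted with it.

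Eif4ebp3 (chromosome 18, plus strand), a gene of an eIF4E-binding repressor, had 182 normalized counts or fewer in every library. Its values were 163, 173, 156 and 138 normalized counts in WT_SD, against 115, 143, 96.2 and 166 in WT_BL. In KO_SD it had 182, 179, 168 and 178 normalized counts, against 105, 135, 77.0 and 120 in KO_BL. The knockout groups did not overlap, whereas WT_BL 2 and WT_BL 4 lay within the WT_SD range. For Eif4ebp3 the mean effect was 0.51 ± 0.13 (log2, SE, limma adjusted p = 0.019), and 0.51 without KO_SD 4 (adjusted p = 0.0237). An annotated gene on the same strand, AC115631.1, covers 501 of the 744 exonic bases of Eif4ebp3, so the counts of this gene are uncertain.

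Of the genes that fell, Eef2k (chromosome 7, 120842831 to 120907450, plus strand) encodes the kinase that phosphorylates and slows eEF2. It had 752, 613, 655 and 747 normalized counts in WT_SD, against 732, 856, 709.8 and 834 in WT_BL. In KO_SD it had 679.8, 722, 638 and 548 normalized counts, against 802, 852, 837 and 849 in KO_BL. The wild type groups overlapped and the knockout groups did not. Over both genotypes Eef2k fell, with a mean effect of -0.28 ± 0.07 (log2, SE, limma adjusted p = 0.026), and -0.24 without KO_SD 4 (adjusted p = 0.0306). Eef2k and Eif2ak2 each share exonic bases with an antisense gene (Gm15774 and Gm26637), with the same limit as for Eif1b.

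Eif4b (chromosome 15, 102073773 to 102097173, plus strand), which encodes a cofactor that stimulates the eIF4A helicase, had the smallest change of the 7. It had 3851, 3587, 3733 and 3912 normalized counts in WT_SD, against 4251, 4034, 4134 and 4077 in WT_BL. In KO_SD it had 3815, 3749, 3607 and 3712 normalized counts, against 4261, 4448, 4303 and 4360 in KO_BL. Every sleep-deprived library was below every baseline library of its genotype, and KO_SD 4 was within the range of the other 3 KO_SD libraries. Eif4b fell, with a mean effect of -0.18 ± 0.05 (log2, SE, limma adjusted p = 0.0296), and -0.18 without KO_SD 4 (adjusted p = 0.0213).

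Eif2ak2 (chromosome 17, 78852564 to 78882573, minus strand), the PKR gene, had low counts. It had 128, 92.0, 73.2 and 97.6 normalized counts in WT_SD, against 162, 112, 111 and 112 in WT_BL. In KO_SD it had 107, 91.3, 86.2 and 69.1 normalized counts, against 142, 144, 129 and 100.2 in KO_BL. The groups overlapped in both genotypes, by WT_SD 1 and by KO_BL 4. The mean effect was -0.45 ± 0.14 (log2, SE, limma adjusted p = 0.0467), and it was no longer called without KO_SD 4 (-0.39, adjusted p = 0.072) or without WT_BL 1, the highest library (-0.38, adjusted p = 0.1).

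**Figure D4:**
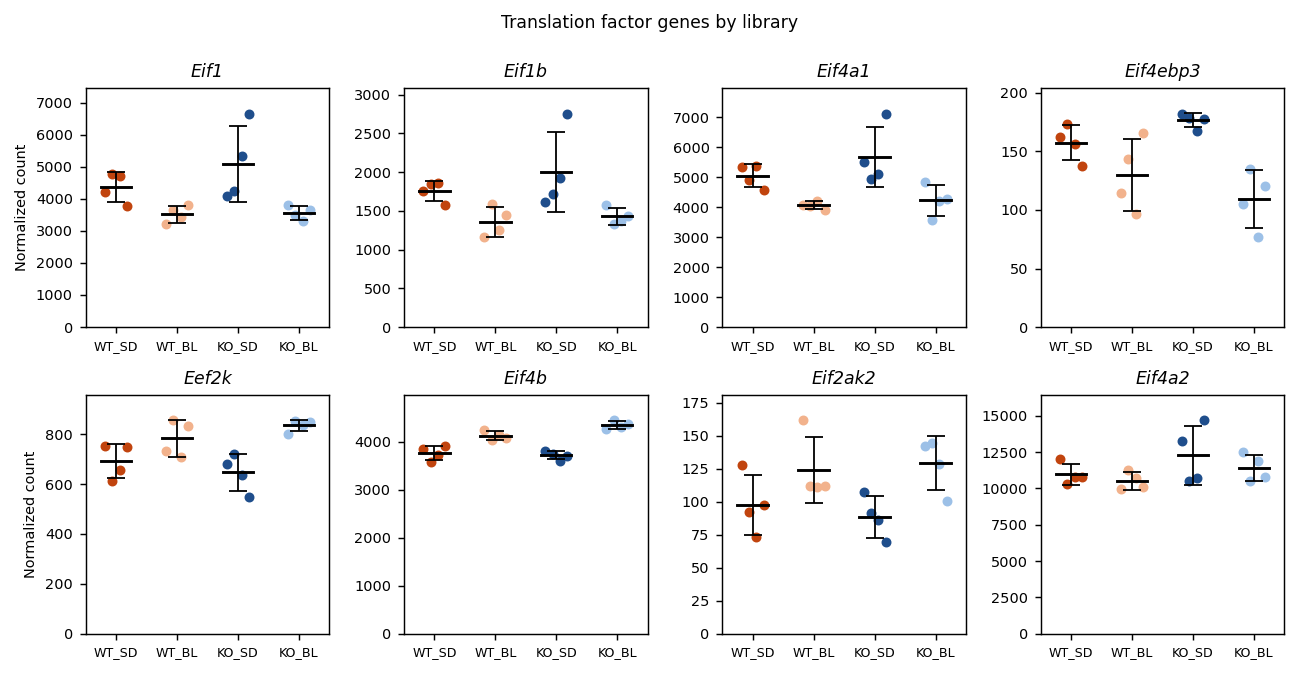
Normalized counts of the 7 genes called for the mean sleep deprivation effect and of Eif4a2, in each library of WT_SD, WT_BL, KO_SD and KO_BL (points), with the group mean and SD as black bars and the axis from 0. For Eif4a1 and Eif4b the sleep-deprived and baseline groups do not overlap in either genotype, and Eif4a2 overlaps in both.

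The 4 genes that rose were called in every alternative that was run, including without KO_SD 1 and KO_SD 4 together, where their mean effects were 0.36 (Eif1), 0.36 (Eif1b), 0.29 (Eif4a1) and 0.50 (Eif4ebp3). The 3 genes that fell were not called without WT_SD 2, without WT_SD 3 or without KO_BL 3, each of which left 4 factor genes called (with 6.42%, 4.99% and 6.36% of all genes called). Without KO_SD 1 the count rose to 14 (10 higher and 4 lower, with 16.2% of all genes called), adding Eif3b, Eif3f, Eif3i, Eif3k, Eef1b2, Eef1d and, among those lower, Eif4ebp2.

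The 4 genes that rose have small deposited widths, and genes of small width as a whole moved upward. The deposited widths were 716 bases for Eif1, 917 for Eif1b, 975 for Eif4a1 and 744 for Eif4ebp3. The annotated exonic bases of these genes were 2098, 1125, 4334 and 744, so a width can lie well below them. Over all 14604 genes the mean effect ran with width at a Spearman rho of -0.27 (-0.14 without KO_SD 4), from a median of 0.12 log2 units in the tenth of genes with the shortest width to -0.11 in the tenth with the longest. Each of the 4 genes lay above more than 92% of the genes of its own width class, at 92.4% (Eif1), 93.2% (Eif1b), 93.1% (Eif4a1) and 95.9% (Eif4ebp3). Eif2ak2 and Eef2k lay above 5.27% and 11.4% of theirs, and Eif4b, of 3850 bases, above 30.5% of a class whose median was -0.06. These genes were picked by being called, so places near the ends of a class follow largely from that choice. The part of width in these effects was not tested further.

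The cell type and tissue markers that moved with sleep deprivation are given here beside the 7 calls. In the mean effect 11 of 11 striatal markers were below 0 (median -0.99 log2, 7 called), 5 of 5 red blood cell markers were below 0 (median -0.87, 2 called), 8 of 10 tested hippocampal markers were above 0 (median 0.55, 1 called) and 5 of 5 oligodendrocyte markers were above 0 (median 0.30, 1 called). The summed counts of the oligodendrocyte markers ran from 64685 to 117262 in WT_SD against 50604 to 89269 in WT_BL, and from 66477 to 112014 in KO_SD against 48663 to 74564 in KO_BL. Those of the hippocampal markers ran from 4415 to 7709.8 in WT_SD against 3448 to 6648 in WT_BL, and from 3564 to 5702 in KO_SD against 3786 to 4992 in KO_BL. Those of the red blood cell markers ran from 1012 to 2114 in WT_SD against 1564 to 3309 in WT_BL, and from 564 to 2184 in KO_SD against 1140.4 to 5024 in KO_BL. Excitatory neuron markers (4 of 5 below 0, median -0.12, none called) and astrocyte markers (5 of 5 above 0, median 0.18, none called) had smaller medians. Of the endothelial markers 3 of 5 were below 0 (median -0.17) and 1 was called higher, and their summed counts ran from 2796 to 3501 in WT_SD against 2779.6 to 3379 in WT_BL, and from 2071 to 3055 in KO_SD against 2699.7 to 3306 in KO_BL. No listed marker was at 0 in all libraries, and the part of tissue makeup in the factor genes' changes was not tested.

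Stretches just before the transcript start were looked up for Eif1, Eif1b, Eif4a1, Eef2k, Eif4b and Eif2ak2, picked among the called genes. Eif1b and Eif2ak2 kept too few bases outside annotated exons to be printed. The stretches of 2 genes that rose and 2 that fell are shown. They come from RefSeq promoter windows on GRCm38.p6, in which 46 of the 60 genes have an entry, and each stretch stops before any base that the GENCODE annotation puts in an exon. Capitals mark letters found by a search of both strands (so a reverse complement is also marked) for CACGTG (the E-box), TGACGTCA (the full cAMP response element), TGACG (its half-site, which also matches inside the full element), CCAAT and TATAAA. The Eif1 stretch is chr11:100319749-100319884 on the plus strand, that of Eif4a1 is chr11:69672424-69672623 on the minus strand, that of Eef2k is chr7:120842631-120842830 on the plus strand and that of Eif4b is chr15:102073573-102073772 on the plus strand.
Eif1: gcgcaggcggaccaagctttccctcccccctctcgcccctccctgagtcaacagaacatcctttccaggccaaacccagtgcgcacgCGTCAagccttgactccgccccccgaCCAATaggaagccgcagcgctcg
Eif4a1: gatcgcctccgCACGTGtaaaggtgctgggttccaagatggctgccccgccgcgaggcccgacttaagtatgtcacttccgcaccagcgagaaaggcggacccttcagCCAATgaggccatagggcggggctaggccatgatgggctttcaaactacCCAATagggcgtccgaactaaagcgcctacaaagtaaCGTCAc
Eef2k: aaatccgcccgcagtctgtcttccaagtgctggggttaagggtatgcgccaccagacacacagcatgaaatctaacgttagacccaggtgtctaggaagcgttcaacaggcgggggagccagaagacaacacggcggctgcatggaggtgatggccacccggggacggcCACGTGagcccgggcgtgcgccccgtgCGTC
Eif4b: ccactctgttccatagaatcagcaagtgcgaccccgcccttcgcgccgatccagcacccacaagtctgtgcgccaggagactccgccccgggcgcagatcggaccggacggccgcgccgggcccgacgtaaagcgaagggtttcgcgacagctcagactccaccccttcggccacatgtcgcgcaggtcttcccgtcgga
The half-site of Eef2k continues past the last base shown. An E-box stood in the windows of Eif4a1, Eef2k and Eif1b, and a half-site in those of Eif1, Eif4a1 and Eef2k. Both motifs thus occurred in genes that rose and in a gene that fell. The windows of Eif4b and Eif2ak2 held none of the 5. With the most upstream window of each gene, the E-box was found in 10 of 46 factor genes (21.7%), against 7.24% of 27025 genes of the RefSeq table, and the half-site in 20 (43.5%), against 20.9%. The full element was found in 2.17% of factor genes and 1.85% of all, CCAAT in 28.3% and 38.0%, and TATAAA in 8.7% and 14.2%. The 27025 genes include many that were not tested here, and shares over the tested genes alone were not taken. These are matches of letters in a window, with no measure of binding.

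No subunit gene of the eIF3 scaffold was called, but most lay on 1 side. In wild type 13 of 13 tested eIF3 genes had a log2 fold change above 0 after sleep deprivation (median 0.10, from 0.02 for Eif3d to 0.21 for Eif3i), and in knockout 11 of 13 did (median 0.20), against 49.8% and 49.7% of all genes. These shares of all genes were not matched for width, and the part of width in the eIF3 values was not tested. Without KO_SD 4 the knockout median was 0.05, with 10 of 13 above 0. Without KO_SD 1 and KO_SD 4 it was 0.075, with 9 of 13 above 0. The largest wild type values were those of Eif3i (0.21 ± 0.10, adjusted p = 0.285), Eif3k (0.20 ± 0.12, adjusted p = 0.405), Eif3f (0.18 ± 0.09, adjusted p = 0.331) and Eif3h (0.17 ± 0.08, adjusted p = 0.301), all log2 with SE from limma. Eif3k, picked after its values were seen, varied widely in knockout. It had 1021, 1502, 1713 and 2476 normalized counts in KO_SD 1 to 4, against 1111, 1443, 1305 and 1487 in KO_BL. KO_SD 2, KO_SD 3 and KO_SD 4 lay above every baseline library, KO_SD 4 by far the most, and KO_SD 1 lay below every one. The core subunit genes Eif3a and Eif3c had mean effects of 0.02 ± 0.09 and 0.01 ± 0.05.

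Among the eIF2 genes, none other than Eif2ak2 was called in the mean effect. Eif2s1 had 938, 809.5, 867 and 776 normalized counts in WT_SD, against 707, 844, 719.6 and 645 in WT_BL, with WT_BL 2 inside the WT_SD range (log2 fold change 0.22 ± 0.10, adjusted p = 0.279). Its mean effect was 0.23 ± 0.10 (adjusted p = 0.137), and 0.11 without KO_SD 1 and KO_SD 4. Eif2s2, the gene of the beta subunit, did not overlap in wild type, with 1101 to 1213 normalized counts in WT_SD against 986 to 1079 in WT_BL. The 5 genes of eIF2B, the exchange factor that reloads eIF2 with GTP, had mean effects between -0.02 (Eif2b2) and 0.10 (Eif2b1). The kinase genes Eif2ak1 and Eif2ak4 had mean effects of 0.06 ± 0.06 and -0.07 ± 0.11, and Eif5, the GTPase activator of eIF2, -0.04 ± 0.07 (adjusted p = 0.782).

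Of the cap-binding genes, Eif4a1 and Eif4b were the 2 called in the mean effect. The 3 eIF4E genes Eif4e, Eif4e2 and Eif4e3 each had WT_SD libraries above all WT_BL libraries, with Eif4e at 2065 to 2279 normalized counts in WT_SD and 1916 to 1989 in WT_BL. Their wild type log2 fold changes were 0.14 ± 0.07, 0.11 ± 0.07 and 0.17 ± 0.09 (adjusted p = 0.322, 0.424 and 0.339), and in knockout the groups overlapped for all 3. Eif4e3 shares 373 exonic bases with Gm20696 on its own strand, so its counts are uncertain. The scaffold genes Eif4g1 and Eif4g3 had mean effects of -0.17 ± 0.08 and -0.13 ± 0.08 (adjusted p = 0.196 and 0.268), and KO_SD 4 was the lowest of the 16 libraries for both, at 3558 and 4606 normalized counts. Eif4g2 had a mean effect of 0.09 ± 0.08 (adjusted p = 0.488). Of the repressors, Eif4ebp2 had 403, 262, 203 and 109 normalized counts in KO_SD, against 329.6, 319.6, 353 and 338 in KO_BL, so that KO_SD 1 lay above and the other 3 below every baseline library. Its mean effect was -0.36 ± 0.20 (adjusted p = 0.256), and -0.19 without KO_SD 4. Eif4ebp1 had a mean effect of -0.17 ± 0.12 (adjusted p = 0.396).

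In the elongation group Eef2k was the 1 gene called in the mean effect. The 5 genes Eef1a1, Eef1b2, Eef1d, Eef1e1 and Eef1g had mean effects between 0.16 and 0.30. Without KO_SD 4 these were smaller, at 0.08 (Eef1a1), 0.18 (Eef1b2), 0.19 (Eef1d), 0.20 (Eef1e1) and 0.09 (Eef1g). Eef1e1, whose product sits in the multisynthetase complex, had 445 to 473 normalized counts in WT_SD against 339 to 424 in WT_BL, without overlap (0.26 ± 0.10, limma adjusted p = 0.195). Eef1b2, an exchange factor subunit gene, had a wild type log2 fold change of 0.23 ± 0.10 (adjusted p = 0.247). Eef1a2, Eef2, Eef2k and Eef2kmt, the last a methyltransferase gene for eEF2, were below 0 in both genotypes, with mean effects of -0.09 ± 0.09 for Eef1a2 (adjusted p = 0.531) and -0.17 ± 0.10 for Eef2 (adjusted p = 0.282). Without KO_SD 1 the values were -0.03 for Eef1a2 and -0.09 for Eef2, and without KO_SD 1 and KO_SD 4 they were -0.0054 for Eef1a2 and -0.06 for Eef2. Eef2kmt had 52.0 to 64.3 normalized counts in WT_SD against 67.8 to 76.8 in WT_BL, without overlap (-0.32 ± 0.15, adjusted p = 0.291). It shares 472 exonic bases with the antisense gene Alg1 and 143 with Gm15983, with the same limit as for Eif1b. Of the subunit joining genes, Eif5b had a knockout log2 fold change of 0.30 ± 0.13 (adjusted p = 0.383), which was 0.12 without KO_SD 1 and KO_SD 4.

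Within wild type alone, 0 of the 58 genes passed limma's threshold for WT_SD against WT_BL, where 1.36% of 14310 tested genes did. Counts by edgeR and limma-voom on recovered reads were also 0, and DESeq2 called 3 (Eif1, Eif1b and Eif4a1, all higher, with 4.72% of all genes called). At an unadjusted p below 0.05, 7 genes passed, all higher in WT_SD (Eif4a1, Eif1b, Eif1, Eef1e1, Eef1b2, Eif2s1 and Eif3i). That is 12.1% of the factor genes against 17.4% of all genes. Eif4a1 had the smallest p (log2 fold change 0.31 ± 0.08, adjusted p = 0.0736), ahead of Eif1b (0.38 ± 0.11, adjusted p = 0.108) and Eif1 (0.31 ± 0.09, adjusted p = 0.131). Without WT_SD 4, Eif1 and Eif4a1 passed, with 3.57% of all genes called. In the authors' deposited table for this comparison, which gives baseline over sleep deprivation, Eif4a1 (log2 ratio -0.30, false discovery rate 0.00445) and Eif1b (-0.32, 0.0411) were below 0.05, among 4.4% of genes. Groups did not overlap for 6 genes that were higher in WT_SD (6.04% of all genes) and 2 that were lower (4.28% of all genes), in all 13.8% of the factor genes against 10.3% of all genes.

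Within the knockout, 0 of the 58 genes passed limma's threshold for KO_SD against KO_BL, where 0.23% of 14318 tested genes did. Counts by edgeR and limma-voom were also 0, and DESeq2 called 1 (Eif4ebp3, with 2.16% of all genes called). At an unadjusted p below 0.05, 8 genes passed, 5 higher in KO_SD (Eif4ebp3, Eif1, Eif4a1, Eif1b and Eif5b) and 3 lower (Eef2k, Eif2ak2 and Eif4b). That is 13.8% of the factor genes against 12.3% of all genes. Eif4ebp3 had the smallest p (log2 fold change 0.72 ± 0.18, adjusted p = 0.179), followed by Eef2k (-0.37 ± 0.12, adjusted p = 0.264). Without KO_SD 4 the log2 fold changes were 0.72 for Eif4ebp3 and -0.30 for Eef2k. Without KO_SD 1 and KO_SD 4 they were 0.69 and -0.30. That of Eif4a1 was 0.42 with all libraries, 0.30 without KO_SD 4 and 0.26 without both. In the authors' deposited table, baseline over sleep deprivation, Eif4ebp3 (log2 ratio -0.55, false discovery rate 0.0397) was the 1 factor gene below 0.05, among 2.07% of genes. Groups did not overlap for 4 genes higher in KO_SD (4.59% of all genes) and 2 lower (3.64% of all genes), in all 10.3% of the factor genes against 8.23% of all genes.

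The sleep deprivation effects of the 2 genotypes, which share no library, had the same sign for 53 of the 58 factor genes (38 higher and 15 lower after sleep deprivation in both), or 91.4%, against 78.2% of 14214 genes tested in both. Across the factor genes Pearson's r was 0.89, given as a description since genes of the same libraries are not independent, against 0.70 across all genes. Without KO_SD 4 the shares were 84.5% and 75.3%. Without KO_SD 1 and KO_SD 4 they were 69.0% and 69.1%, so the excess of the factor genes over all genes was not seen in the remaining libraries.

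**Figure D5:**
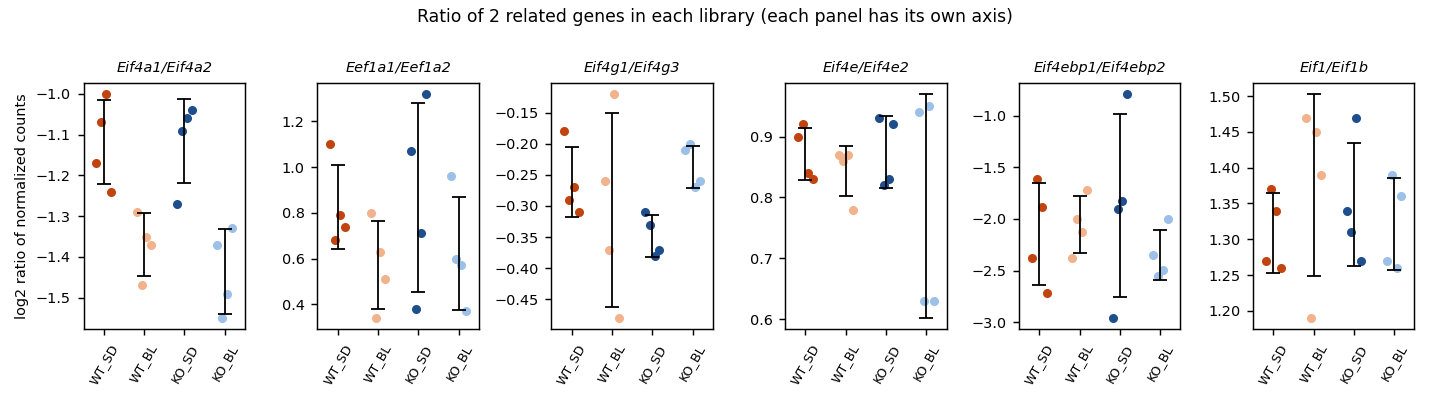
Log2 ratio of the normalized counts of 6 pairs of related genes in each library of WT_SD, WT_BL, KO_SD and KO_BL (points), with mean ± SD as bars and a separate axis for each pair. Eif4a1 over Eif4a2 lies higher in every sleep-deprived library than in every baseline library of the same genotype.

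Ratios of related genes within a library compare members at the same depth. For the 2 eIF4A helicase genes the ratio separated the groups in both genotypes, and the test did not pass after adjustment. With 4 against 4 animals, 1 pair alone could not pass over 12 tests. A single test at the smallest p would adjust to 0.343. The log2 ratio of their normalized counts was -1.17, -1.07, -1.0 and -1.24 in WT_SD, against -1.29, -1.47, -1.35 and -1.37 in WT_BL. In KO_SD it was -1.27, -1.09, -1.06 and -1.04, against -1.37, -1.55, -1.49 and -1.33 in KO_BL. The differences were 0.25 in wild type and 0.32 in knockout, each with an exact two-sided permutation p of 0.0286, the smallest that 4 against 4 animals allow, and 0.114 after adjustment over 12 tests. The Eif4a2 gene itself had 10330 to 12000 normalized counts in WT_SD against 9963 to 11280 in WT_BL. Its mean effect was 0.08 ± 0.08 (limma adjusted p = 0.526), and -0.02 without KO_SD 1 and KO_SD 4. Eif4a2 shares exonic bases with small RNA genes on its own strand, such as Snora81 (178 bases), and 194 with the antisense gene Rfc4.

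The log2 ratio of Eif1 to Eif1b differed by -0.07 in wild type and 0.03 in knockout, with overlapping groups (exact permutation adjusted p = 0.571 and 0.748). With 4 against 4 animals this cannot show that the 2 genes changed equally. The ratio of Eef1a1 to Eef1a2 was higher by 0.26 in wild type and 0.24 in knockout, with overlapping groups (exact permutation adjusted p = 0.429 and 0.571). Eif4g1 over Eif4g3 was -0.31, -0.33, -0.38 and -0.37 in KO_SD, against -0.21, -0.20, -0.27 and -0.26 in KO_BL, without overlap (exact permutation p = 0.0286, adjusted p = 0.114), while in wild type the groups overlapped. Eif4e over Eif4e2 and Eif4ebp1 over Eif4ebp2 overlapped in both genotypes.

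None of the 58 genes passed the threshold between knockout and wild type by limma, edgeR, limma-voom or DESeq2, at baseline or after sleep deprivation, and 0 of them had an unadjusted p below 0.05 in limma, against 2.75% of all genes at baseline and 1.62% after sleep deprivation. The log2 fold change was above 0 for 38 factor genes at baseline (65.5%, against 50.9% of all genes) and for 43 after sleep deprivation (74.1%, against 49.3% of all genes). The median after sleep deprivation was 0.07 log2 units, and it turned to -0.00706 without KO_SD 4 and to -0.00779 without KO_SD 1 and KO_SD 4. At baseline 0.0139% of 14341 tested genes were called, and 3 factor genes had KO_BL libraries above all WT_BL libraries (Eif4b, Eif3l and Eif3m, 5.17%, against 1.05% of all genes in that direction and 1.78% in either). Eif4b had 4261 to 4448 normalized counts in KO_BL against 4034 to 4251 in WT_BL (log2 fold change 0.07 ± 0.07, adjusted p = 0.982). Eif3l and Eif3m had log2 fold changes of 0.12 ± 0.07 and 0.11 ± 0.07 (adjusted p = 0.982 each), and Eif4a2, the third by p, 0.12 ± 0.08 with overlapping groups. After sleep deprivation 0% of 14280 tested genes were called, and no factor gene separated the groups, against 1.35% of all genes. The smallest p there belonged to Eif3j1 (0.20 ± 0.14, adjusted p = 1), Eif3m (0.24 ± 0.17, adjusted p = 1) and Eif4ebp3 (0.17 ± 0.13, adjusted p = 1). Without KO_SD 1 and KO_SD 4 these values were -0.02 for Eif3j1, 0.05 for Eif3m and 0.14 for Eif4ebp3.

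The difference between the genotypes in their response to sleep deprivation was tested as an interaction, the knockout effect minus the wild type effect. Of the 58 factor genes 0 passed by limma, edgeR, limma-voom or DESeq2, as did 0% of all genes in limma, and 0 had an unadjusted p below 0.05, against 1.1% of all genes. The interaction was above 0 for 43 factor genes (74.1%), against 50.3% of all genes. Its median over the factor genes was 0.04 log2 units, and it turned to -0.04 without KO_SD 4 and also without KO_SD 1 and KO_SD 4. Eif4ebp3 had the smallest p (0.42 ± 0.25 log2 units, adjusted p = 1), followed by Eif3j1 (0.23) and Eif5b (0.20), which were 0.01 and 0.02 without KO_SD 1 and KO_SD 4. Antisense genes share 1107 exonic bases with Eif3j1 (Spg11) and 1643 with Eif5b (Rev1), with the same limit as for Eif1b. For the 6 genes other than Eif4ebp3 called in the mean effect, the interaction lay between -0.20 (Eef2k) and 0.18 (Eif1), with SE between 0.10 and 0.27.

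Genes that regulate or extend this machinery were read from 8 lists with 106 entries. In the mean effect 4 were called higher and 3 lower, where 10% of all genes were called, and none was called in WT_SD against WT_BL or in KO_SD against KO_BL. Rheb, the small GTPase that activates mTORC1, rose by 0.52 ± 0.09 log2 units (limma adjusted p = 0.00235), with 0.45 in wild type and 0.58 in knockout. Atf4, the transcription factor made when eIF2 is phosphorylated, rose by 0.36 ± 0.09 (adjusted p = 0.0165), Paip2, an inhibitor of poly(A)-binding protein, by 0.27 ± 0.08 (adjusted p = 0.0308) and the ribosome rescue factor gene Hbs1l by 0.27 ± 0.06 (adjusted p = 0.0153). Sesn3, an inhibitor of mTORC1, fell by 0.58 (adjusted p = 0.0314), Mknk1, a kinase of eIF4E, fell by 0.25 (adjusted p = 0.0205) and Dph6, an enzyme of the diphthamide modification of eEF2, fell by 0.30 (adjusted p = 0.012). The calls of Paip2 and Sesn3 were each lost when any 1 of 9 single libraries was left out. For Sesn3 these included KO_SD 4 (limma adjusted p = 0.0514). The highest adjusted p was 0.0688 for Paip2 (without WT_BL 1) and 0.0718 for Sesn3 (without WT_SD 3).

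By list, the mTORC1 and S6 kinase genes had 1 of 23 called higher and 1 lower (median -0.03), and the MAP kinase interacting kinases and RSK genes 0 of 5 higher and 1 lower (median 0.02). The stress response genes had 1 of 17 called higher (median 0.05), the poly(A)-binding protein genes 1 of 8 (median 0.10), and the termination and recycling genes 1 of 11 (median 0.07). Of the hypusine and diphthamide enzymes 1 of 9 was called lower (median -0.05), and of the 23 cytosolic aminoacyl-tRNA synthetases (median 0.05) and the 10 translational repressors at synapses (median -0.10) 0 were called, with 5 and 2 at an unadjusted p below 0.05. Among the other genes with the smallest p of their list in wild type, the log2 fold changes of WT_SD over WT_BL were -0.39 ± 0.12 for Gcn1, a partner of the kinase GCN2 (limma adjusted p = 0.145), 0.61 ± 0.19 for the arginine sensor gene Castor1 (adjusted p = 0.141), -0.30 ± 0.11 for the mRNA-binding repressor gene Cpeb4 (adjusted p = 0.2), -0.28 ± 0.12 for the RSK gene Rps6ka1 (adjusted p = 0.25) and 0.20 ± 0.08 for the synthetase gene Eprs (adjusted p = 0.214). The second genes of the other lists, Pabpn1, Gspt2, Dph3, Kars and Gigyf1, had adjusted p values between 0.254 and 0.495.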

How the data were processed

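Cortical RNA of 16 mice was sequenced on an Illumina HiSeq instrument, per the labels. RSEM (1.2.19) and edgeR, with mm10 and GRCm38 as builds, are listed in the submitters' processing notes. The sources used here do not give the annotation release or the strandedness. The authors deposited 4 sheets, 1 for each pairwise comparison, with a normalized count and an FPKM value per gene and library. The normalized counts (a signal scaled by the authors) came back to whole reads for 100% of values up to 20 reads, within 0.1. The scale of a library differed by at most 0.229% between sheets. The deposited tables also hold a log2 ratio, a p-value and a false discovery rate per gene, used only where the text names them. 72 further per-sample columns were not used.

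Samples were grouped by the genotype and treatment labels. Normalized counts were tested as log2(count + 1) with limma 3.58.1 (R 4.3.3; trend and robust steps), for genes with at least 10 in at least 4 libraries, with Benjamini-Hochberg adjustment over all genes tested. A fold change on that scale understates the change of low genes. There were 6 comparisons: 4 pairwise, the interaction and the mean sleep deprivation effect. Ratios of related genes had exact permutation tests over libraries. The code was tested on simulated data.

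Alternatives were pseudocounts of 0.5 and 5, no filter or a filter of 50, other scalings, limma without trend, limma-voom, DESeq2 1.42.0 on recovered reads, a replicate block and leaving out each library. edgeR 4.0.16 on recovered reads and leaving out KO_SD 1 and KO_SD 4 together were chosen after seeing the data.

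The genes and lists were chosen with earlier results of these data known. Named by rule were every called gene, the 12 and 8 smallest p values in wild type and knockout, the 3 smallest in each other comparison, 12 core genes, genes below the filter, and for each list its called genes and the 2 smallest p values in wild type. Other genes named as extremes of a role, or for groups that do not overlap, were picked after their values were seen. Coordinates are those of GENCODE M21 (GRCm38).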

Additional observations from a re-analysis of the deposited data

Results flagged for a closer look

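The 4 libraries of each group were checked for the 27 factor genes named by rule and for the mean deviation over the factor genes. Of these 112 sets of 4 values, 3 held a library far from the others, with a gap past Dixon's critical value for 4 samples. Chance gives about 1 in 20 sets. Eef1a1 had 29480 normalized counts in WT_SD 4, against 31120 to 31280 in the other WT_SD libraries. Eef1b2 had 1739 normalized counts in WT_BL 1, against 2070.0 to 2091 in the other WT_BL libraries. Eif2ak2 had 161.7 normalized counts in WT_BL 1, against 111 to 112.1 in the other WT_BL libraries, and its mean effect was not called without that library.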

How the results depend on the processing

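In the mean sleep deprivation effect, Eif1, Eif1b, Eif4a1 and Eif4ebp3 were called in all 28 alternatives (highest limma, edgeR or DESeq2 adjusted p = 0.0386, 0.0433, 0.031 and 0.0437). Eef2k was not called in 4, Eif4b in 8 and Eif2ak2 in 15 of them. The count of called genes ran from 4 to 14 when single libraries were left out (4.99% to 16.2% of all genes), and was 9 by DESeq2 (14.8%) and 6 with no filter (6.9%). In wild type the count of 0 became 3 by DESeq2 and lay between 0 and 2 with single libraries left out, and in knockout it became 1 by DESeq2. Without KO_SD 1 and KO_SD 4 the direction turned for Eif3j1 in KO_SD against WT_SD (-0.0186) and for Eif4a2 in the mean effect (-0.0192). With single libraries left out, the wild type differences in log2 ratio of Eif4ebp1 to Eif4ebp2 ran from -0.268 to 0.1 (0.022 without WT_BL 4), of Eif4g1 to Eif4g3 from -0.011 to 0.111, and the knockout difference of Eif1 to Eif1b from -0.013 to 0.053. The cause was not tested. Of the 6 medians over the factor genes, 4 kept their direction in every alternative that was run. Those of KO_SD against WT_SD (-0.00706 and -0.00779) and of the interaction (-0.0387 and -0.043) turned without KO_SD 4 and without KO_SD 1 and KO_SD 4. Genes of low counts, such as Eif2ak2 and Eif4ebp3, are limited by depth.

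Correlations of same-numbered deviations from the group mean ran from -0.14 to 0.25 in wild type and from -0.25 to 0.38 in knockout. Between the genotypes they ran from -0.15 to 0.29 at baseline and from -0.4 to 0.32 after sleep deprivation. Libraries numbered 1 had positive values in each of these comparisons (0.25, 0.38, 0.22 and 0.32), and the other numbers had values of both signs. What the libraries numbered 1 may share was not tested. With the replicate number as a block, 7 factor genes were called in the mean effect (11.4% of all genes) and 0 in the other 5 comparisons.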
